A study of Mus musculus with 24 samples.

Results

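The Wnt ligands of mouse skin, their receptors and the secreted proteins that raise or lower their activity were followed across 3 body sites and in day 3 wounds. The genes were taken by symbol from the expression table: all Wnt, Frizzled (Fzd), secreted Frizzled-related protein (Sfrp), Dickkopf (Dkk) and R-spondin (Rspo) genes, with Lrp5, Lrp6, Ror1, Ror2, Frzb, Wif1 and Axin2. This gave 48 of 18368 genes, made up of 19 ligands, 10 Frizzled receptors, 4 co-receptors, 4 R-spondins, 5 Frizzled-related antagonists, 5 other secreted antagonists and the feedback gene Axin2. The rule uses gene names alone.

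Full-thickness skin was taken from 12 CD-1 mice, an outbred stock kept as a house colony, with 4 mice for each of abdomen, back and cheek. The mice were wounded at 7 weeks of age, when their hair follicles were timed to be at rest, after shaving, anaesthesia and pain relief. Abdomen and back mice each received 2 wounds and cheek mice 1, all of 2 mm diameter and at a single site, so the number of wounds cannot be told apart from the site. On day 3 the wound and unwounded skin beside it were each taken with a punch of 2 mm, which gave 1 wound and 1 unwounded library per mouse and 24 libraries in all. RNA came from whole tissue with no cell type selected, so in every comparison fewer cells of a type and less RNA per cell cannot be told apart.

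Wnt proteins are lipid-modified ligands that bind a Frizzled receptor together with a co-receptor. With Lrp5 or Lrp6 as co-receptor they keep beta-catenin from being destroyed and so switch on target genes such as Axin2, whereas with Ror1 or Ror2 they act on cell polarity and movement. R-spondins keep Wnt receptors at the cell surface, Sfrp proteins, Frzb and Wif1 bind the ligands, and the Dkk1, Dkk2 and Dkk4 proteins block Lrp5 and Lrp6. In skin, the pathway is known for the formation of hair follicles, for their entry into growth and for the upkeep of the epidermis.

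Levels are given as FPKM, read fragments relative to transcript length and to all mapped fragments, which can be compared between genes. Errors of FPKM means are standard deviations over the 4 mice of a group. The FPKM values of a library summed to between 490830 and 608888, and between 15781 and 16577 genes were above 0. Differences were tested with limma on log2(FPKM + 0.5), so fold changes are on that scale and understate those of low genes, and a gene was called when its Benjamini-Hochberg adjusted p over all tested genes was under 0.05. Of the 48 genes, 40 were tested in unwounded skin, 39 in wounds and 40 over all libraries, after a filter of 0.5 FPKM in at least 4 libraries. Rspo2 passed that filter through unwounded libraries alone, so its wound difference is tied to the filter.

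Unwounded libraries were not uniform. The summed markers of growing hair follicle (8 genes) came to 4971 FPKM in the unwounded cheek library of mouse 4, against between 3.01 and 80.44 in the other 11 unwounded libraries. The summed markers of skeletal muscle (8 genes) came to 516.8 and 2705 FPKM in the unwounded abdomen libraries of mice 2 and 3, against between 12080 and 24600 in the other unwounded libraries. Results that rest on these libraries are given with and without the mice concerned. Defining markers of skin were present in every library, with the summed interfollicular epidermis markers (5 of 6 genes in the table) at 5395 FPKM or more and the fibroblast markers (7 genes) at 6079 FPKM or more.

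Among the ligands, Wnt4 had the highest mean over the 24 libraries (21.1 FPKM), followed by Wnt10a (15.8), Wnt7b (15.2), Wnt3 (11.8) and Wnt5a (6.96). The next 8 ligands had means between 1.28 FPKM (Wnt10b, linked to the onset of follicle growth) and 3.08 FPKM (Wnt11, a ligand of the branch that does not use beta-catenin). Wnt1, Wnt2b, Wnt7a, Wnt8a, Wnt8b and Wnt9b stayed under the filter, with no library above 0.71 FPKM, and so did the antagonists Dkk1 and Dkk4, with none above 0.21. Wnt8b was listed at 0 in 19 libraries and Dkk4 in 21.

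All 10 Frizzled genes were measured, from 1.12 FPKM for Fzd3 to 16.5 for Fzd1 as means over 24 libraries. Lrp5 (22.7 FPKM) and Lrp6 (9.25 FPKM) stood above Ror2 (2.77) and Ror1 (1.36). Rspo1 (7.77 FPKM) stood above Rspo3 (1.72), Rspo4 (0.98) and Rspo2 (0.463). Sfrp2 had the highest mean of the 48 genes (33.8 FPKM), and Sfrp4 (19.1), Dkk3 (17.7) and Sfrp1 (16.8) were the next antagonists. Sfrp2 ranged from 3.54 FPKM in an unwounded abdomen library to 68.06 in a back wound.

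**Figure D1:**
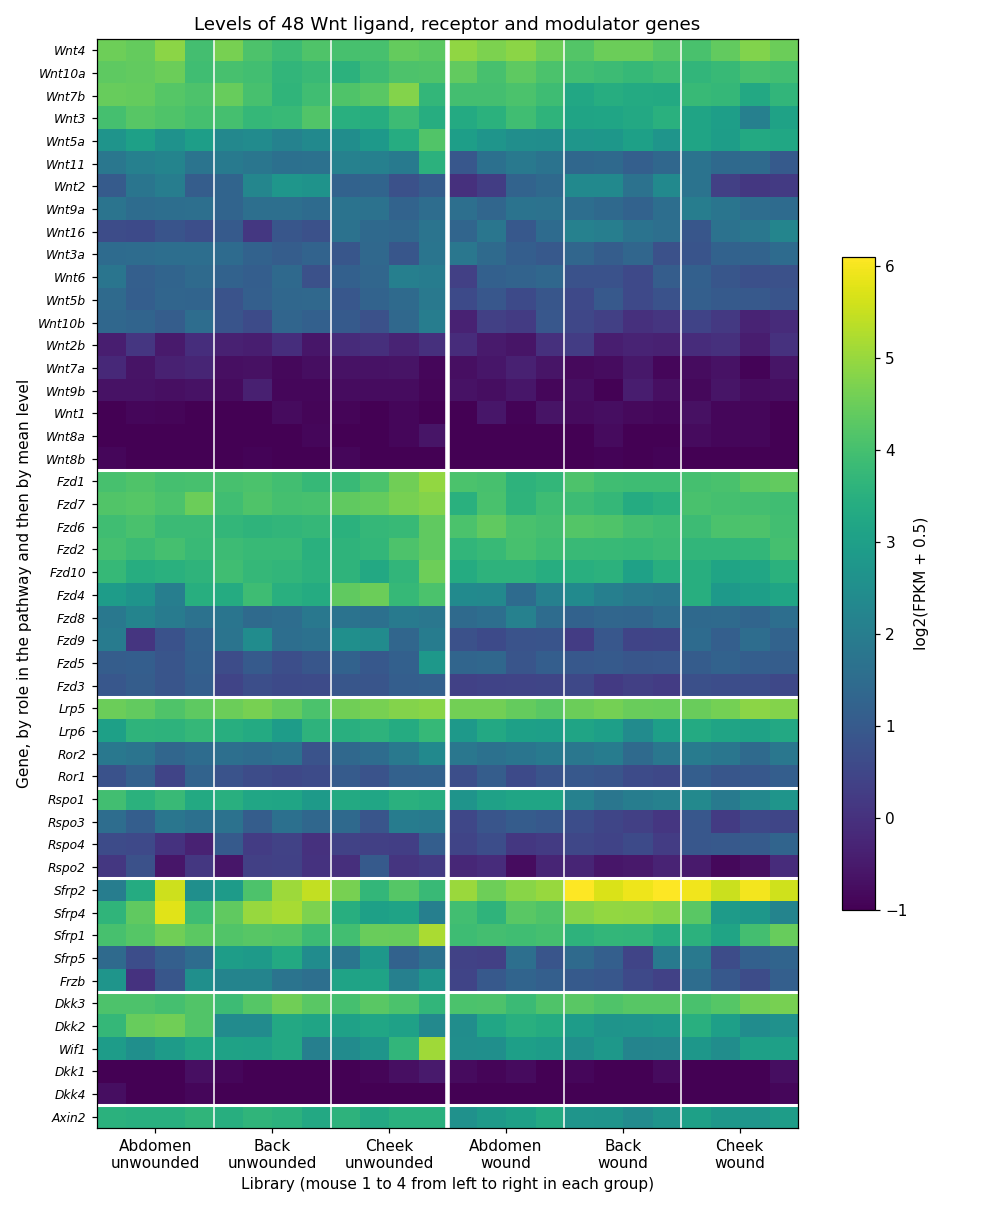
Levels of the 48 genes in the 24 libraries, as log2(FPKM + 0.5) on a colour scale, with genes in rows by role and then by mean level and libraries in columns by group and mouse. Sfrp2 lies between 45.42 and 68.06 FPKM in the back and cheek wounds, while Wnt8b, Wnt8a, Wnt1, Dkk1 and Dkk4 stay dark throughout.

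Wounds carried less RNA of many of these genes than the unwounded skin of the same mouse. In abdomen, 11 of the 40 tested genes were called, 10 lower and 1 higher in the wound, against 32.9% of all tested genes called, 16% lower and 16.9% higher. In back, 16 were called, 13 lower and 3 higher, against 45.9% of all genes, 17.9% lower and 28% higher. In cheek, 19 were called, 17 lower and 2 higher, against 36.6% of all genes, 16.9% lower and 19.7% higher. The 17 include Rspo2, whose lower value in wounds is tied to the filter. As shares of the 40 genes, the lower calls came to 25%, 32.5% and 42.5%, and the higher calls to 2.5%, 7.5% and 5%. The abdomen, back and cheek medians of the log2 difference were -0.29, -0.28 and -0.38 for the 40 genes, against -0.015, 0.066 and 0.012 over all tested genes.

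At the stricter threshold of 0.001, 1, 4 and 3 of the genes were called in abdomen, back and cheek, against 4.96%, 14.4% and 8.69% of all tested genes. The abdomen count was 9 without abdomen mice 2 and 3, and without cheek mouse 4 the cheek count was 14. Leaving out 1 mouse at a time moved the abdomen count between 7 (without abdomen mouse 1) and 13, the back count between 12 (without back mouse 3 or 4) and 19, and the cheek count between 12 (without cheek mouse 2) and 19. In a fit to the 8 libraries of each site alone, the calls of Sfrp2 in back and of Fzd3, Fzd9, Fzd10, Wnt3, Wnt6, Wnt7b and Wnt11 in cheek were lost. Without mouse as a block, those of Sfrp1 in back and of Fzd9, Fzd10, Lrp6 and Rspo4 in cheek were lost. The calls of Wnt16 in abdomen, of Wnt10b and Fzd6 in back and of Fzd9, Wnt6 and Rspo4 in cheek were each lost under at least 1 of no filter, a pseudocount of 0.1 and quantile normalization.

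**Figure D2:**
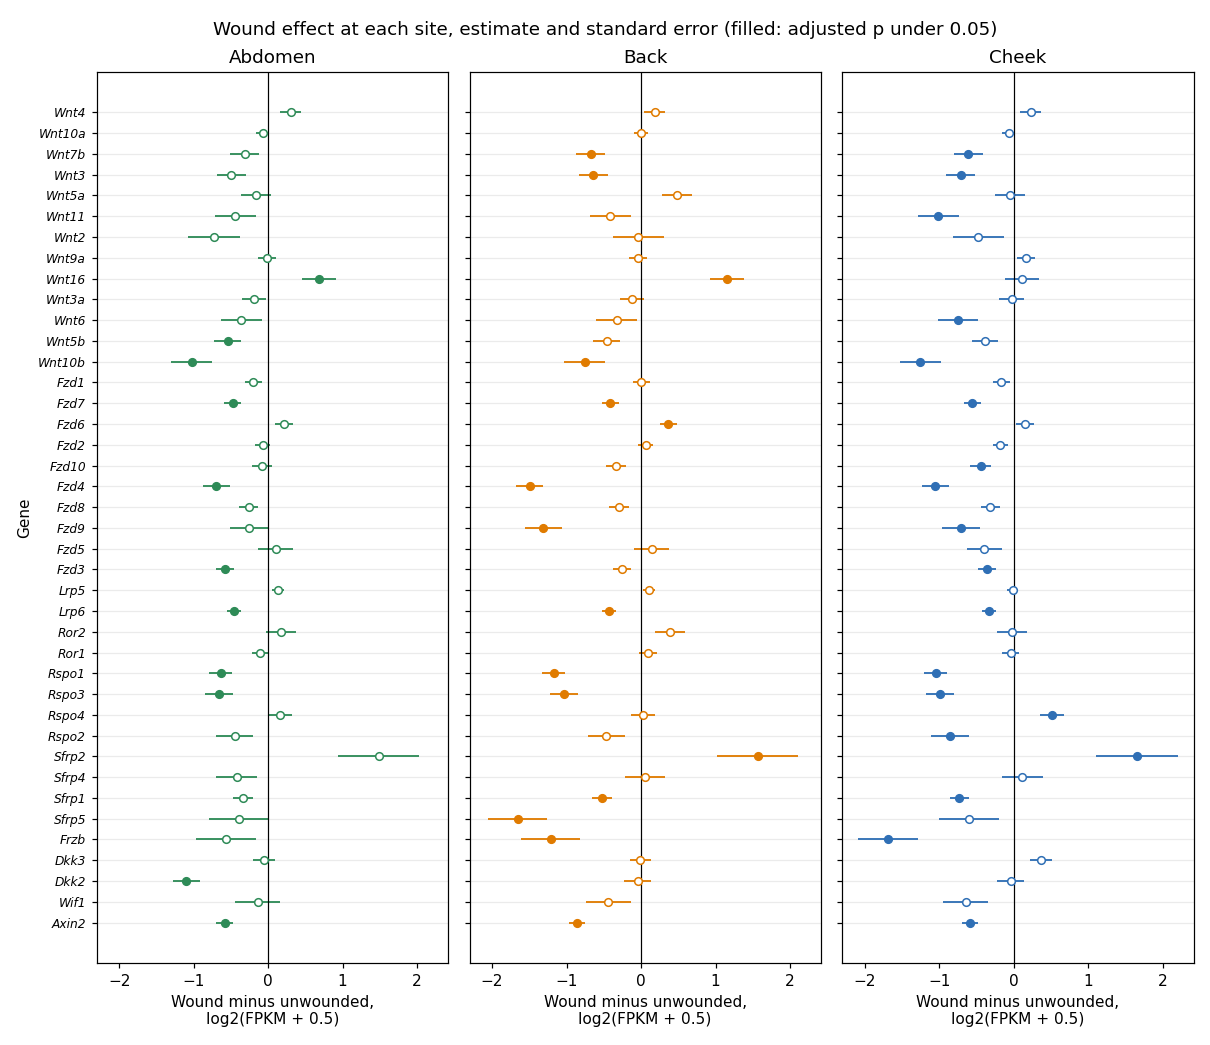
Wound effect at each site for the 40 tested genes, as the difference in log2(FPKM + 0.5) between wound and unwounded skin, with points for the estimate, bars for the standard error and filled points for an adjusted p under 0.05. Filled points lie left of 0 for 10, 13 and 17 genes at abdomen, back and cheek, and right of 0 for 1, 3 and 2.

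Cell type markers moved with the same contrast. The 5 resting follicle markers summed to between 1185 and 1652 FPKM in unwounded abdomen and 454.8 and 858.2 in abdomen wounds, to between 939.9 and 1053 and 565.7 and 619.5 in back, and to between 1042 and 1317 and 493.9 and 780.8 in cheek. They were thus lower in wounds at every site with no overlap, and 3, 2 and 3 of the 5 were called lower in abdomen, back and cheek. The 7 fibroblast markers summed to between 13580 and 19510 FPKM in unwounded abdomen against 9130 and 12780 in its wounds, to between 16040 and 23470 against 9338 and 12710 in back, and to between 9332 and 15600 against 6079 and 11250 in cheek, with 5, 3 and 3 called lower and 0, 1 and 1 higher. The 6 adipocyte markers summed to between 1027 and 1818 against 285.5 and 539 FPKM in abdomen, to between 1021 and 1845 against 303.1 and 448.9 in back, and to between 441.4 and 1563 against 273.1 and 791.3 in cheek, with 6, 6 and 5 called lower.

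By group median, the lists of endothelium, neutrophils, wound epidermis, dermal papilla and interfollicular epidermis summed higher in wounds at every site. So did those of macrophages, regenerating muscle, pericytes and smooth muscle, and proliferation. Those of T cells, Schwann cells, melanocytes, sebaceous gland and growing hair follicle summed lower at every site. The T cell medians were 49.45, 36.02 and 32.82 FPKM in unwounded abdomen, back and cheek, and 32.61, 20.2 and 19.59 in wounds. The 6 endothelial markers summed to between 76.46 and 86.96 FPKM in unwounded abdomen, 75.35 and 102.3 in back and 75.95 and 114.9 in cheek, and to between 108.4 and 123.9, 125 and 142.2, and 123.3 and 143.3 in the wounds, with 5 of the 6 called higher at each site. The 7 neutrophil markers summed to between 8.45 and 37.77 FPKM in unwounded libraries, where Ly6g was listed at 0 in every abdomen and back library, and to between 346.2 and 2390 in wounds. The 3 wound epidermis keratins summed to between 58.52 and 195.8 FPKM in unwounded libraries and to between 1587 and 12650 in wounds. The 5 dermal papilla markers summed to between 45.94 and 73.02 FPKM in unwounded abdomen against 112.4 and 163.2 in its wounds, to between 30.74 and 45.94 against 122.8 and 171 in back, and to between 50.58 and 72.92 against 134 and 237.6 in cheek, where of the 4 tested 2, 2 and 1 were called higher and 0, 0 and 1 lower. The 5 interfollicular epidermis markers summed to between 5395 and 10170 FPKM in unwounded libraries and to between 10090 and 18240 in wounds, without overlap at any site, with 2, 3 and 3 called higher. Skeletal muscle markers in wounds summed to between 1744 and 7148 FPKM, under all unwounded libraries except those of abdomen mice 2 and 3. Of these 8 markers, 0, 6 and 0 were called lower in abdomen, back and cheek, and none was called higher. The part of these shifts in the differences of the Wnt genes was not tested.

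**Figure D3:**
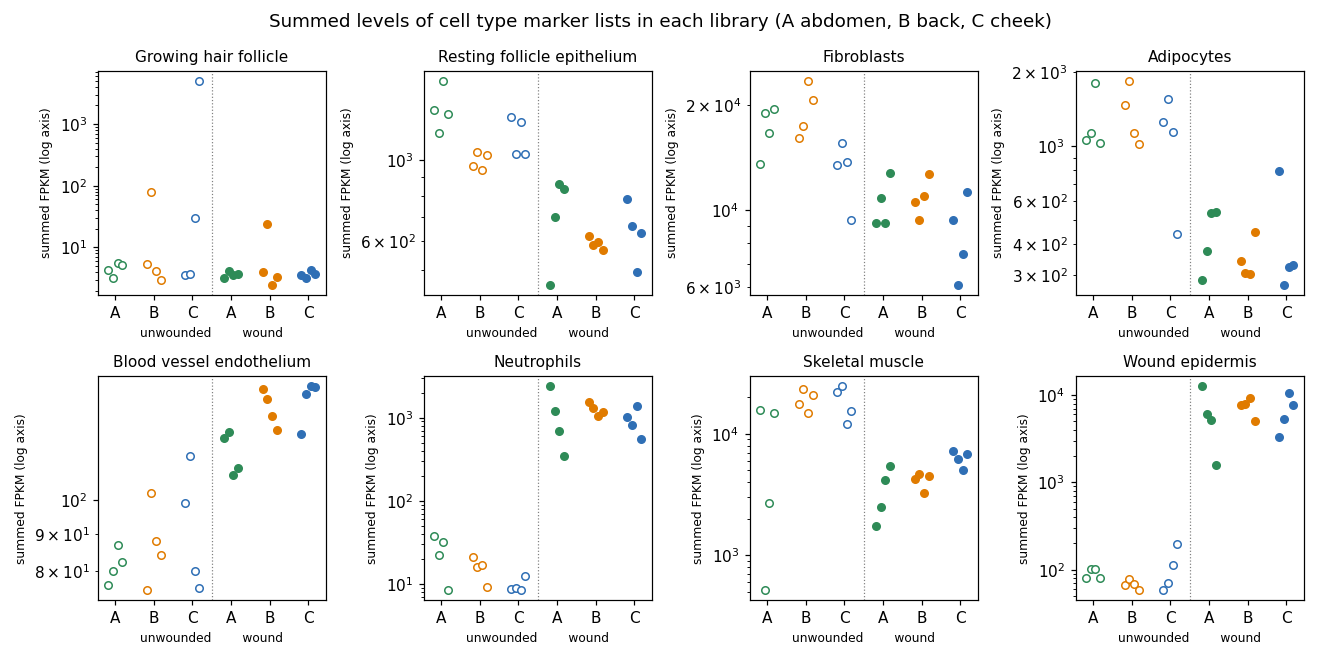
Summed FPKM of 8 cell type marker lists in each library on log axes, with open circles for unwounded skin and filled circles for wounds of abdomen (A), back (B) and cheek (C). One unwounded cheek library lies at 4971 FPKM for growing hair follicle, 2 unwounded abdomen libraries lie at 516.8 and 2705 FPKM for skeletal muscle, and neutrophil markers lie at 346.2 FPKM or more in every wound.

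Axin2, Fzd4, Fzd7, Lrp6, Rspo1, Rspo3 and Wnt10b fell in wounds at all 3 sites, 7 of the 40 tested genes (17.5%), against 7.15% of all tested genes. None of the 40 rose at all 3 sites, which 12% of all tested genes did. The 7 genes are a ligand, 2 Frizzled receptors, a co-receptor, 2 R-spondins and the feedback gene.

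Of the ligands, Wnt10b (gene 22410, chr15:98770712-98778206, GRCm38.p6 as are all positions given) measured 2.11, 1.93, 1.62 and 2.43 FPKM in abdomen, 1.3, 1.05, 1.98 and 1.75 in back and 1.5, 1.2, 2.16 and 3.56 in cheek in the unwounded skin of mice 1 to 4. In the wounds of the same mice it measured 0.3, 0.77, 0.68 and 1.42 in abdomen, 0.92, 0.77, 0.49 and 0.57 in back and 0.84, 0.64, 0.31 and 0.41 in cheek. Every wound was lower than the unwounded skin of its mouse, and the groups did not overlap at any site. The fall was 1.02 on the log2 scale in abdomen (SE 0.28, limma adjusted p = 0.0137), 0.76 in back (SE 0.28, adjusted p = 0.039) and 1.26 in cheek (SE 0.28, adjusted p = 0.00374). Its back call was lost without back mouse 3 (adjusted p = 0.175) or back mouse 4, and its abdomen call without abdomen mouse 1 (adjusted p = 0.0716). Without cheek mouse 4, whose unwounded library held the highest value, the cheek fall was 0.96 (adjusted p = 0.019).

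Fzd4 (gene 14366, chr7:89404366-89410110), a receptor for Wnts and for Norrin known from blood vessel development, had the lowest adjusted p of the 40 genes in back. In unwounded skin it measured 7.16, 5.83, 3.6 and 10.36 FPKM in abdomen, 9.77, 14.49, 10.56 and 9.84 in back and 20.1, 22.01, 12.96 and 16.52 in cheek. In wounds it measured 4.73, 4.54, 2.27 and 3.77 in abdomen, 4.8, 3.71, 3.15 and 2.93 in back and 10.4, 6.67, 7.46 and 8.58 in cheek. Wounds were lower in all 12 mice, with no overlap in back or cheek. The means went from 11.2 ± 2.25 to 3.65 ± 0.836 FPKM in back, 2.82-fold lower (adjusted p = 4.87e-05), and from 17.9 ± 4 to 8.28 ± 1.62 in cheek, 2.08-fold lower (adjusted p = 8.38e-04). In abdomen they went from 6.74 ± 2.83 to 3.83 ± 1.12, 1.62-fold lower (adjusted p = 0.012), a call that was lost without abdomen mouse 4 (adjusted p = 0.0725). The endothelial markers were higher in wounds at every site, and the part of cell types in the fall of Fzd4 was not tested. Skeletal muscle markers, like Fzd4, were lowest among unwounded skin in abdomen mice 2 and 3, and without those mice the abdomen fall was 0.95 on the log2 scale (adjusted p = 0.024).

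Fzd7 (gene 14369, chr1:59482147-59486955), a receptor of epithelial stem cells, measured 17.39, 18.23, 16.47 and 22.22 FPKM in abdomen, 14.64, 17.07, 15.59 and 16.03 in back and 19.94, 20.99, 24.61 and 27.11 in cheek in unwounded skin. Wounds measured 10.85, 16.18, 11.8 and 14.33 in abdomen, 13.96, 12.85, 9.83 and 10.86 in back and 16.18, 15.52, 15.28 and 14.74 in cheek, lower in all 12 mice and without overlap at any site. The log2 falls were 0.48, 0.41 and 0.56 in abdomen, back and cheek (SE 0.11 each), with adjusted p = 0.00795, 0.0113 and 0.00244. The back call was lost without back mouse 3 (adjusted p = 0.0659) or back mouse 4.

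Lrp6 (gene 16974, chr6:134446476-134566913), the co-receptor that Dkk proteins block, measured 7.72, 11.8, 11.44 and 12.79 FPKM in abdomen, 10.43, 9.66, 7.11 and 11.47 in back and 10.67, 11.64, 9.87 and 12.89 in cheek in unwounded skin. The wound libraries held 6.59, 9.26, 7.65 and 7.56 in abdomen, 8.35, 7.61, 4.82 and 7.48 in back and 9.53, 8.28, 8.08 and 9.3 in cheek. All 12 mice were lower in the wound, but the groups overlapped in abdomen and back. The falls were 1.37-fold in abdomen (adjusted p = 0.00346), 1.35-fold in back (adjusted p = 0.00267) and 1.26-fold in cheek (adjusted p = 0.0144). The cheek call was lost without cheek mouse 2 (adjusted p = 0.0736) or cheek mouse 4 (adjusted p = 0.0517). Its partner Lrp5 was not called at any site, with means between 19.8 and 25.7 FPKM.

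Rspo1 (gene 192199, chr4:124986401-125009102), the most abundant R-spondin here, measured 14.9, 11.18, 13.65 and 9.51 FPKM in abdomen, 10.69, 8.64, 8.61 and 6.78 in back and 9.41, 8.75, 10.93 and 10.31 in cheek in unwounded skin. In wounds it measured 5.9, 7.81, 8.57 and 8.46 in abdomen, 3.88, 2.96, 3.49 and 3.82 in back and 4.61, 3.26, 4.44 and 5.98 in cheek. Wounds were lower in all 12 mice and no group overlapped its counterpart. Means fell 1.56-fold in abdomen, from 12.3 ± 2.42 to 7.68 ± 1.24 FPKM (adjusted p = 0.00909), 2.26-fold in back, from 8.68 ± 1.6 to 3.54 ± 0.421 (adjusted p = 9.88e-05), and 2.07-fold in cheek, from 9.85 ± 0.963 to 4.57 ± 1.11 (adjusted p = 3.27e-04). No single mouse left out ended these calls, but without abdomen mice 2 and 3 the abdomen fall of 0.71 on the log2 scale had an adjusted p of 0.0601.

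Rspo3 (gene 72780, chr10:29453106-29535867), an R-spondin known from vessel development, measured 2.39, 1.66, 2.94 and 2.56 FPKM in abdomen, 2.69, 1.63, 2.56 and 2.1 in back and 2.17, 1.33, 3.43 and 3.2 in cheek in unwounded skin. Its wounds measured 0.93, 1.33, 1.59 and 1.43 in abdomen, 1.11, 0.9, 0.76 and 0.58 in back and 1.41, 0.67, 0.96 and 0.89 in cheek, lower in all 12 mice, with overlap only in cheek, where 1 unwounded and 1 wound library crossed. The log2 falls were 0.66 in abdomen (SE 0.18, adjusted p = 0.016), 1.03 in back (adjusted p = 6.88e-04) and 0.99 in cheek (adjusted p = 0.00132). The abdomen call was lost without abdomen mouse 1 (adjusted p = 0.0762) and also without mouse 3 or 4.

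Axin2 (gene 12006, chr11:108917828-108950783), a scaffold of the beta-catenin destruction complex and a target of the pathway that dampens it, was narrowly spread in unwounded skin, at 11.17, 10.6, 10.57 and 11.99 FPKM in abdomen, 10.45, 11.94, 11.27 and 9.3 in back and 11.52, 9.24, 10.94 and 10.76 in cheek. Wounds measured 5.52, 6.75, 7.65 and 9.43 in abdomen, 5.97, 5.94, 4.84 and 5.94 in back and 7.75, 6.26, 6.19 and 7.3 in cheek. The lowest unwounded library, in cheek, lay under the highest wound, in abdomen, but at each site the wounds lay under all unwounded libraries. Means fell from 11.1 ± 0.665 to 7.34 ± 1.65 FPKM in abdomen (1.5-fold, adjusted p = 0.00189), from 10.7 ± 1.14 to 5.67 ± 0.555 in back (1.82-fold, adjusted p = 5.93e-05) and from 10.6 ± 0.972 to 6.88 ± 0.773 in cheek (1.51-fold, adjusted p = 0.00124). With each mouse left out in turn, its adjusted p stayed at or under 0.0109 at the 3 sites.

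**Figure D4:**
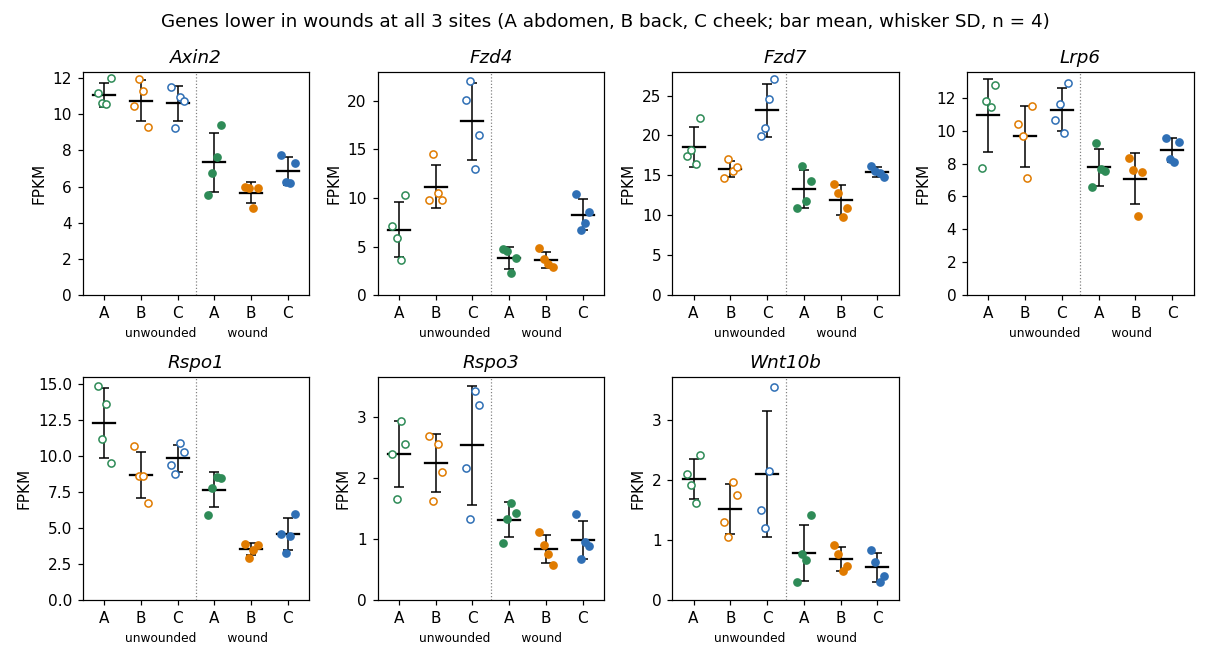
FPKM of the 7 genes lower in wounds at all 3 sites, with a point for each mouse (open for unwounded skin, filled for wounds), bars for the mean and whiskers for the SD of 4 mice. At each site the wound means lie under the unwounded means, from 6.74 to 3.83 FPKM for Fzd4 in abdomen to 10.7 to 5.67 FPKM for Axin2 in back.

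Of the 13 tested ligands, 3, 4 and 5 were called in abdomen, back and cheek, and all but Wnt16 were lower, against 32.9%, 45.9% and 36.6% of all tested genes called. Wnt16 (gene 93735, chr6:22288178-22298522), known for its part in cortical bone, measured 1.08, 1.01, 1.28 and 1.14 FPKM in abdomen, 1.5, 0.61, 1.36 and 1.21 in back and 2.69, 2.19, 2.1 and 2.79 in cheek in unwounded skin. In wounds the values were 1.97, 2.93, 1.44 and 2.32 in abdomen, 3.82, 3.58, 2.77 and 2.51 in back and 1.37, 2.69, 3.03 and 4.18 in cheek. It rose 2.23-fold in back (adjusted p = 0.00154) and 1.61-fold in abdomen (adjusted p = 0.0379), in all 4 mice of each site and without overlap. In cheek, where unwounded skin already held 2.44 ± 0.348 FPKM, the wound mean was 2.82 ± 1.16 and 3 of 4 mice were higher (adjusted p = 0.75). The abdomen call was lost without abdomen mouse 2 (adjusted p = 0.159) and also without mouse 1 or 4, and without abdomen mice 2 and 3 together its adjusted p was 0.136.

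The epidermal ligands Wnt7b and Wnt3 fell in back and cheek. The summed interfollicular epidermis markers were higher in wounds, and the part of cell types in the falls of Wnt7b and Wnt3 was not tested. Wnt7b (gene 22422, chr15:85535437-85581821) measured 21.27, 20.73, 18.32 and 16.94 FPKM in abdomen, 21.22, 15.85, 12.01 and 14.64 in back and 17.05, 19.01, 27.08 and 12.56 in cheek in unwounded skin. The wound libraries held 15.29, 15.23, 16.58 and 14.41 in abdomen, 9.07, 10.24, 9.58 and 9.44 in back and 13.3, 12.64, 9.24 and 12.29 in cheek, lower in all 12 mice. The fall was 1.6-fold in back (adjusted p = 0.0123), with no overlap, and 1.53-fold in cheek (adjusted p = 0.0251), with overlap, while in abdomen the difference was -0.32 on the log2 scale (SE 0.19, adjusted p = 0.224). The back call was lost without back mouse 1 (adjusted p = 0.07), and the cheek call without cheek mouse 3 (adjusted p = 0.134) or cheek mouse 2.

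Wnt3 (gene 22415, chr11:103774175-103818021) measured 15.48, 18.71, 17.05 and 15.64 FPKM in abdomen, 15.52, 12.64, 13.25 and 17.44 in back and 10.57, 10.28, 14.03 and 10.13 in cheek in unwounded skin. Wounds measured 9.65, 11.12, 14.62 and 11.88 in abdomen, 8.35, 8.55, 9.27 and 10.78 in back and 8.28, 7.44, 3.8 and 7.94 in cheek, lower in all 12 mice with no overlap at any site. It fell 1.56-fold in back (adjusted p = 0.0168) and 1.64-fold in cheek (adjusted p = 0.0122), and the abdomen difference was -0.49 on the log2 scale (SE 0.19, adjusted p = 0.0657). Its back call was lost without back mouse 1 (adjusted p = 0.0677) or back mouse 4.

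Another 3 ligands were called at a single site. Wnt11 fell 2.02-fold in cheek, from 5.52 ± 3.8 to 2.18 ± 0.516 FPKM (adjusted p = 0.0133), and the unwounded library of cheek mouse 4 alone held 11.2 FPKM. Without that mouse the fall was 0.51 on the log2 scale in place of 1.02 (adjusted p = 0.0175). Wnt6 went from 2.74 ± 0.979 to 1.37 ± 0.283 FPKM in cheek (adjusted p = 0.0476, and 0.166 without cheek mouse 4). Wnt5b, a relative of Wnt5a, went from 1.97 ± 0.219 to 1.2 ± 0.214 FPKM in abdomen (adjusted p = 0.0347), and its adjusted p without abdomen mice 2 and 3 was 0.123. Of the 12 fits without 1 mouse, 8 did not call Wnt6 in cheek and 3 did not call Wnt5b in abdomen.

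Of the 10 Frizzled genes, 3, 3 and 5 fell in abdomen, back and cheek, against 16%, 17.9% and 16.9% of all tested genes, and Fzd6 rose in back. Fzd9 (gene 14371, chr5:135248938-135251047), which groups with Fzd4 and Fzd10 by sequence, measured 3.35, 0.56, 1.24 and 1.83 FPKM in abdomen, 2.83, 5.01, 2.48 and 2.61 in back and 5.29, 4.88, 2.03 and 3.43 in cheek in unwounded skin. In wounds the values were 1.2, 1, 1.27 and 1.31 in abdomen, 0.71, 1.41, 0.88 and 0.91 in back and 2.32, 1.71, 2.41 and 1.9 in cheek. It fell 2.48-fold in back (adjusted p = 0.00128), with no overlap. In cheek it fell 1.63-fold (adjusted p = 0.0446) in 3 of 4 mice, a call that 9 of the 12 fits with a mouse left out did not make. In abdomen the lowest unwounded values were again those of mice 2 and 3, and the difference was -0.25 on the log2 scale (adjusted p = 0.466), or -0.77 without them (adjusted p = 0.102).

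Fzd3 and Fzd6 belong together by sequence, and both are known for the planar polarity of hairs. Fzd3 fell 1.49-fold in abdomen, from 1.51 ± 0.166 to 0.848 ± 0.0435 FPKM (adjusted p = 0.00422), and 1.28-fold in cheek (adjusted p = 0.0369), where the call was lost without cheek mouse 4 (adjusted p = 0.15), 2 or 3. Fzd6 rose 1.29-fold in back, from 12.3 ± 0.422 to 16.1 ± 1.65 FPKM (adjusted p = 0.0217), a call that was lost without back mouse 2 (adjusted p = 0.0937) or 1. In cheek Fzd6 was not called (adjusted p = 0.345), but without mouse 4, whose unwounded library held 20.24 FPKM, the rise there was 0.34 on the log2 scale (adjusted p = 0.00766). Fzd10 fell in cheek, from 14 ± 5.83 to 9.65 ± 1.4 FPKM (adjusted p = 0.0234), and without cheek mouse 4 its adjusted p was 0.123.

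Of the R-spondins, Rspo4 was called higher in cheek, where Rspo1 and Rspo3 fell. Rspo4 (gene 228770, chr2:151842647-151874668), known for its part in nail formation, measured 1.05, 0.97, 0.53 and 0.3 FPKM in abdomen, 1.53, 0.69, 0.83 and 0.5 in back and 0.82, 0.77, 0.75 and 1.69 in cheek in unwounded skin. The wound libraries held 0.87, 1.11, 0.62 and 0.67 in abdomen, 0.93, 0.84, 1.01 and 0.69 in back and 1.41, 1.46, 1.57 and 1.92 in cheek. The cheek rise was 1.42-fold (adjusted p = 0.0242), in all 4 mice, with overlap between the groups, since the unwounded library of mouse 4 held 1.69 FPKM. The call was lost without cheek mouse 3 (adjusted p = 0.105), 1 or 2, and without cheek mouse 4 the rise was 0.63 on the log2 scale in place of 0.51 (adjusted p = 0.0164). Rspo2 was low, at 0.807 ± 0.488 FPKM in unwounded cheek and 0.203 ± 0.164 in cheek wounds, and since it passed the filter through unwounded libraries its lower wound value is no finding.

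Sfrp2 (gene 20319, chr3:83765750-83774314), a Wnt-binding antagonist of dermal fibroblasts, showed the largest rises. In unwounded skin it measured 3.54, 9.74, 46.46 and 5.29 FPKM in abdomen, 6.91, 16.95, 32.82 and 43.32 in back and 24.37, 12.61, 18.28 and 13.65 in cheek. In wounds it measured 32.13, 22.64, 28.13 and 31.35 in abdomen, 67.08, 51.07, 60.12 and 68.06 in back and 61.04, 45.42, 62.42 and 47.15 in cheek. Every back wound lay above every unwounded back library, and the same held in cheek, while in abdomen the unwounded library of mouse 3 lay above all 4 wounds. The rise was 2.96-fold in back, from 25 ± 16.2 to 61.6 ± 7.85 FPKM (adjusted p = 0.0369), and 3.15-fold in cheek, from 17.2 ± 5.36 to 54 ± 8.96 (adjusted p = 0.0363).

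In abdomen the Sfrp2 means were 16.3 ± 20.3 and 28.6 ± 4.31 FPKM, and the log2 difference of 1.48 (SE 0.54) had an adjusted p of 0.0586. It was 2.74 without abdomen mice 2 and 3 (adjusted p = 0.00385). The back and cheek calls were sensitive to single mice, since 7 and 4 of the 12 fits with a mouse left out gave an adjusted p of 0.05 or more, at most 0.17 without back mouse 1 and 0.113 without cheek mouse 2. Fibroblast markers as a list were lower in wounds, and the part of cell types in the rise of Sfrp2 was not tested.

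The other Frizzled-related antagonists fell or were not called. Sfrp5 (gene 54612, chr19:42197971-42202252) measured 2.26, 1.1, 1.72 and 2.33 FPKM in abdomen, 7.27, 6.76, 9.41 and 5.02 in back and 2.86, 6.45, 1.83 and 2.62 in cheek in unwounded skin. In wounds the values were 0.83, 0.78, 2.51 and 1.34 in abdomen, 2.23, 1.73, 0.86 and 3.26 in back and 3.19, 1.08, 1.76 and 1.94 in cheek. It fell 3.15-fold in back (adjusted p = 0.00598), in 4 of 4 mice with no overlap, and the differences in abdomen (-0.39 on the log2 scale, adjusted p = 0.483) and cheek (-0.60, adjusted p = 0.264) were not called. Sfrp1 fell 1.44-fold in back, from 17 ± 2.04 to 11.6 ± 1.07 FPKM (adjusted p = 0.00577), and 1.66-fold in cheek, from 23.6 ± 9.05 to 14.1 ± 5.54 (adjusted p = 9.92e-04).

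Frzb, also known as Sfrp3, fell 2.32-fold in back, from 3.38 ± 0.838 to 1.17 ± 0.341 FPKM (adjusted p = 0.0269), and 3.23-fold in cheek, from 6.57 ± 2.15 to 1.66 ± 0.564 (adjusted p = 0.0068). The back call was lost without any 1 of the 4 back mice (adjusted p up to 0.0803). In unwounded abdomen it measured 5.99, 0.52, 1.37 and 5.27 FPKM, so that mice 2 and 3, with little muscle marker RNA, stood under mice 1 and 4. Over the 4 abdomen mice the difference was -0.57 on the log2 scale (adjusted p = 0.296), and without mice 2 and 3 it was -1.81 (adjusted p = 2.66e-04). Sfrp4 was not called at any site, with wound minus unwounded differences of -0.42, 0.05 and 0.11 on the log2 scale in abdomen, back and cheek. Their signs changed with single mice, scaling or the 2 abdomen mice.

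Dkk2 (gene 56811, chr3:132085266-132180304), which blocks Lrp5 and Lrp6, had the lowest adjusted p of the 40 genes in abdomen. It measured 12.77, 21.53, 23.21 and 17.67 FPKM in abdomen, 4.9, 4.88, 9.21 and 8.3 in back and 7.88, 8.7, 7.79 and 4.59 in cheek in unwounded skin. The wound libraries held 5.13, 8.68, 10.65 and 9.86 in abdomen, 7.08, 5.92, 6.02 and 6.41 in back and 10.56, 7.5, 4.96 and 5.53 in cheek. In abdomen all 4 wounds lay under all 4 unwounded libraries, and the mean fell 2.14-fold, from 18.8 ± 4.64 to 8.58 ± 2.44 FPKM (adjusted p = 9.40e-04, between 5.90e-04 and 0.00632 with each mouse left out, and 0.0247 without abdomen mice 2 and 3). In back and cheek 2 of 4 mice moved each way, with differences of -0.04 (SE 0.18) and -0.04 (SE 0.18). Wound levels at the 3 sites were thus close, at 8.58 ± 2.44, 6.36 ± 0.526 and 7.14 ± 2.53 FPKM, while unwounded abdomen stood apart.

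Whether the wound effect itself differed between sites was tested with a moderated F test over the 24 libraries. None of the 40 genes was called by limma in this test, against 3 of 14423 tested genes (0.0208%). Without adjustment 4 of the 40 had a p under 0.05 in this F test, against 1867 of the 14423 tested genes. None of the 40 was called under any other scaling, filter, moderation or model, or with any mouse left out. The smallest p was that of Dkk2, with an adjusted p of 0.219, followed by Wnt16 (0.312), Fzd4 (0.33) and Fzd9 (0.35). A call at 1 site and not at another therefore does not show that the sites responded differently, and this holds for Dkk2, Wnt16, Sfrp5 and Rspo4 alike.

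Another 16 tested genes were called at no site: Wnt2, Wnt3a, Wnt4, Wnt5a, Wnt9a and Wnt10a among the ligands, Fzd1, Fzd2, Fzd5 and Fzd8 among the receptors, Lrp5, Ror1 and Ror2 among the co-receptors, and Sfrp4, Dkk3 and Wif1 among the antagonists. The share of all tested genes called at no site was not counted, so this number is not a result about these genes. Wnt10a, whose loss in people affects skin appendages, had small differences, from -0.07 to 3.24e-04 on the log2 scale (SE 0.09). Wnt5a, the main ligand of Ror2, had a difference of 0.49 in back (SE 0.20, adjusted p = 0.0658), with all 4 wounds above all unwounded libraries, from 4.49 ± 0.38 to 6.51 ± 0.803 FPKM. In cheek its unwounded library of mouse 4 held 17.44 FPKM against 5.05, 6.47 and 10.02, and the difference was -0.05 with that mouse and 0.24 without it, called in neither fit. Wnt2 had differences of -0.73, -0.03 and -0.48, with SE 0.35.

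Between unwounded sites, 5 of the 40 tested genes were called in at least 1 comparison, a count for which no share over all tested genes was taken. Dkk2 and Sfrp5 separated abdomen from back (2 of 40 genes, against 2.67% of all tested genes), Fzd4, Dkk2, Wnt16 and Wnt3 separated abdomen from cheek (4 of 40, against 2.57%), and Wnt16 separated back from cheek (1 of 40, against 1.05%). Each site entered 2 of these comparisons, so they share libraries. They also share the unwounded libraries with the wound effects, as for Dkk2 in abdomen and Sfrp5 in back, so these are not separate results. Levels over all tested genes were also shifted between sites, with median log2 differences of 0.12 for abdomen minus back, -0.026 for abdomen minus cheek and -0.14 for back minus cheek, against 0.16, -0.12 and -0.21 for the 40 genes. Without abdomen mice 2 and 3, which leaves 2 abdomen mice, the 2 comparisons with abdomen called none of the genes. The share of all tested genes called in that smaller fit is not given.

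Dkk2 was higher in unwounded abdomen, at 18.8 ± 4.64 FPKM, than in back (6.82 ± 2.26) or cheek (7.24 ± 1.81). All 4 abdomen libraries, given above, lay over all 8 others. The log2 differences were 1.42 against back (SE 0.25, limma adjusted p = 0.0138) and 1.32 against cheek (adjusted p = 0.022), or 1.29 and 1.33 after median-ratio scaling. Without abdomen mice 2 and 3 they were 1.14 and 1.04, with adjusted p = 0.265 and 0.331. Leaving out mouse 2 or 3 alone also ended both calls, with adjusted p up to 0.0576 and 0.0829, and the call against cheek was also lost without cheek mouse 1 or 2.

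Sfrp5 was lower in unwounded abdomen (1.85 ± 0.571 FPKM) than in back (7.12 ± 1.81), with no overlap and a log2 difference of -1.70 (adjusted p = 0.0138). In cheek it stood between them, with 1 library at 6.45 FPKM and the others at 2.86 or less. The call was lost without abdomen mouse 2 or 3 (adjusted p up to 0.0548). Without both mice the difference was -1.42 (adjusted p = 0.244).

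Mean Fzd4 went up in steps from unwounded abdomen (6.74 ± 2.83 FPKM) to back (11.2 ± 2.25) and cheek (17.9 ± 4), and the called difference was that of abdomen from cheek, -1.41 on the log2 scale (adjusted p = 0.0182), where the groups did not overlap, while neither neighbouring step was called. It was -0.99 without abdomen mice 2 and 3 (adjusted p = 0.19) and -1.43 without cheek mouse 4 (adjusted p = 0.0424), and the call was lost without cheek mouse 2 (adjusted p = 0.0749), cheek mouse 1 or abdomen mouse 2. Wnt16 was higher in cheek than in abdomen (by 0.85, adjusted p = 0.0316) and back (by 0.84, adjusted p = 0.0458), with no overlap in either. Its difference from back was lost under median-ratio scaling (adjusted p = 0.0868) and in all 12 fits that left out a mouse. Wnt3 was higher in abdomen than in cheek by 0.56 (adjusted p = 0.0419, and 0.0895 without cheek mouse 4). The calls of Wnt16 and Wnt3 between abdomen and cheek were both lost without abdomen mouse 2, cheek mouse 1 or cheek mouse 2. That of Wnt3 was also lost without abdomen mouse 3.

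Upstream sequences are shown for the 4 genes with the smallest p between sites that had an entry in the RefSeq promoter table, so that the start regions of genes that differed by site can be read side by side. They are the 250 bases before the RefSeq transcript start of Sfrp2 (chr3:83766071-83766320, plus strand), Rspo1 (chr4:124986180-124986429, plus strand), Dkk2 (chr3:132085042-132085291, plus strand) and Sfrp5 (chr19:42202253-42202502, minus strand) in GRCm38.p6, written 5′ to 3′ on the strand of the gene, with CG dinucleotides in capitals. The table's start lies inside the outermost annotated span of Sfrp2, Rspo1 and Dkk2 given above.
Sfrp2: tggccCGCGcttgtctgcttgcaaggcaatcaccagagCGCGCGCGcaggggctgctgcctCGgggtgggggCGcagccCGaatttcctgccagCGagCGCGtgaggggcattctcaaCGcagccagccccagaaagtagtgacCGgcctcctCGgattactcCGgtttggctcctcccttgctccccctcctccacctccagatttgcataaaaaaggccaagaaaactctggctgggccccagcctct
Rspo1: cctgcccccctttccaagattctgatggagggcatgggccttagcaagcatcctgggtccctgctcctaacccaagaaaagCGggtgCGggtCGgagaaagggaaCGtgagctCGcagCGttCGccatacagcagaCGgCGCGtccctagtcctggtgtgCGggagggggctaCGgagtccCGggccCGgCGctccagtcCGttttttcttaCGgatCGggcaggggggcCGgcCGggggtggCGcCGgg
Dkk2: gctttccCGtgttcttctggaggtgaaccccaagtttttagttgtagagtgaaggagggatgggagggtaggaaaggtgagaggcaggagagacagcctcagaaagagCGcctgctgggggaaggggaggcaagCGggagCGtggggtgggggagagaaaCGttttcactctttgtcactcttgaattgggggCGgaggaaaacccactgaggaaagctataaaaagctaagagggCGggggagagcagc
Sfrp5: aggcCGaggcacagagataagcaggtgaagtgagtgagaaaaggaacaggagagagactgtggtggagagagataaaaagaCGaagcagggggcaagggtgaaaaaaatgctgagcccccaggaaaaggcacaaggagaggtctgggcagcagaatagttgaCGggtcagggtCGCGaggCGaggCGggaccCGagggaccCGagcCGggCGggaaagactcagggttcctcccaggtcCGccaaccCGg
They hold 16, 22, 7 and 13 CG dinucleotides at 63.6%, 66.8%, 55.6% and 59.6% G and C. Over the 35 windows of the 32 genes with an entry, the medians were 22 and 68%, against 6 and 52.4% over the table's 32851 windows.

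The same 250 bases were searched on both strands for CTTTGAT, for the form CTTTGAA, for the form CTTTGTT and for the form CTTTGTA, of which only 1 can match at a given position of a strand. They are short forms of the motif that TCF and LEF factors bind. None of the 4 windows shown held these letters. A match occurred in 11.4% of the windows of the 32 genes and in 14.8% of all windows, and the genes with one were Dkk1, Fzd7, Wnt11 and Wnt5b.

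Between wounds of different sites, 10 of the 39 tested genes were called in at least 1 comparison, again with no share over all tested genes taken. Abdomen and back wounds differed in 3 of 39 genes (Sfrp2, Wnt7b and Rspo1), against 1.27% of all tested genes. Abdomen and cheek wounds differed in 9 (Sfrp2, Fzd4, Rspo4, Rspo1, Fzd9, Wnt5a, Wnt3, Wnt7b and Wnt10a), or 23.1%, against 10.8% of all genes. Back and cheek wounds differed in 4 (Fzd9, Fzd4, Sfrp4 and Rspo4), or 10.3%, against 2.5%. These comparisons share wound libraries too, with each other and with the wound effects. Median log2 differences were 0.13, 0.035 and -0.14 for the 39 genes, against 0.025, -0.067 and -0.086 over all tested genes. Without abdomen mice 2 and 3, which leaves 2 abdomen wounds, no gene was called against back or cheek, and without cheek mouse 4 the counts were 3, 5 and 0. In 1 fit over all 24 libraries the counts were 1, 3 and 3.

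Abdomen wounds held less Sfrp2 than wounds elsewhere. The 4 abdomen wounds lay between 22.64 and 32.13 FPKM, under the back wounds at 51.07 to 68.06 and the cheek wounds at 45.42 to 62.42, with no overlap. The log2 differences were -1.10 from back (SE 0.14, adjusted p = 0.00799) and -0.91 from cheek (adjusted p = 0.0059), and both calls held with any 1 mouse left out (adjusted p up to 0.0342 and 0.0207). Both calls were lost in 1 fit over all 24 libraries, with the same estimates (adjusted p = 0.416 and 0.312). Without abdomen mice 2 and 3 they were -0.94 and -0.74 (adjusted p = 0.158 and 0.0721).

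Abdomen wounds held more Rspo1, Wnt7b, Wnt3 and Wnt10a. Rspo1 was 2.02-fold higher than in back wounds (adjusted p = 0.0194), with no overlap, and 1.63-fold higher than in cheek wounds (adjusted p = 0.0236), where 1 library overlapped. Wnt7b was 1.57-fold higher than in back (adjusted p = 0.0169) and 1.29-fold higher than in cheek (adjusted p = 0.039), with no overlap in either. Wnt3 and Wnt10a were 1.72-fold and 1.28-fold higher than in cheek (adjusted p = 0.0354 and 0.0488). The differences of Rspo1 from back and cheek, Wnt7b from back and cheek, and Wnt3 and Wnt10a from cheek did not pass in 5, 3, 4, 8, 5 and 10 of 12 fits, each with a mouse left out.

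Cheek wounds held more Fzd4, Fzd9 and Rspo4 than abdomen or back wounds. Fzd4 was at 8.28 ± 1.62 FPKM in cheek wounds, 2.06-fold over abdomen (adjusted p = 0.0148) and 2.12-fold over back (adjusted p = 0.0311), with no overlap. Fzd9 was 1.52-fold and 1.76-fold higher (adjusted p = 0.0297 and 0.0254), and Rspo4 1.6-fold and 1.53-fold higher (adjusted p = 0.0172 and 0.0456), again with no overlap. Without cheek mouse 4 the differences of these 3 genes from back had adjusted p between 0.0602 and 0.107, and those from abdomen 0.0377, 0.0515 and 0.0456. The calls against back were also lost for all 3 genes without cheek mouse 1, back mouse 3 or back mouse 4. In 1 fit over all 24 libraries, 2 of the 3 genes called between back and cheek wounds were higher in back. The wound library of cheek mouse 4 did not stand apart in growing follicle markers, at 3.69 FPKM. Skeletal muscle markers summed to between 5030 and 7148 FPKM in cheek wounds, 3250 and 4678 in back wounds and 1744 and 5435 in abdomen wounds. Their part in these differences was not tested. Wnt5a was 1.41-fold higher in cheek than in abdomen wounds (adjusted p = 0.0326), with overlap, and was not called after median-ratio scaling (adjusted p = 0.0675).

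Sfrp4 (gene 20379, chr13:19623175-19632825) measured 11.96, 20.18, 54.3 and 14.44 FPKM in abdomen, 20.29, 31.63, 35.63 and 25.67 in back and 10.48, 7.68, 8.18 and 3.7 in cheek in unwounded skin. In wounds the values were 15.04, 11.79, 18.95 and 17.07 in abdomen, 27.65, 30.37, 29.55 and 27.26 in back and 18.79, 6.92, 6.27 and 4.13 in cheek. Back wounds were tightly grouped at 28.7 ± 1.49 FPKM and lay over all cheek wounds (9.03 ± 6.62), 3.56-fold higher (adjusted p = 0.0312), a call lost in 6 of 12 fits with a mouse left out, with an adjusted p up to 0.0963 without back mouse 3. The unwounded back and cheek libraries also did not overlap, with a log2 difference of 1.90 (SE 0.45) that was not called (adjusted p = 0.0789). Wnt2, a ligand known from lung formation, had a like order, with 4.17 ± 0.976 FPKM in back wounds against 1.33 ± 0.851 in abdomen and 1.2 ± 1.03 in cheek, and neither difference was called (adjusted p = 0.0955 and 0.0564).

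**Figure D5:**
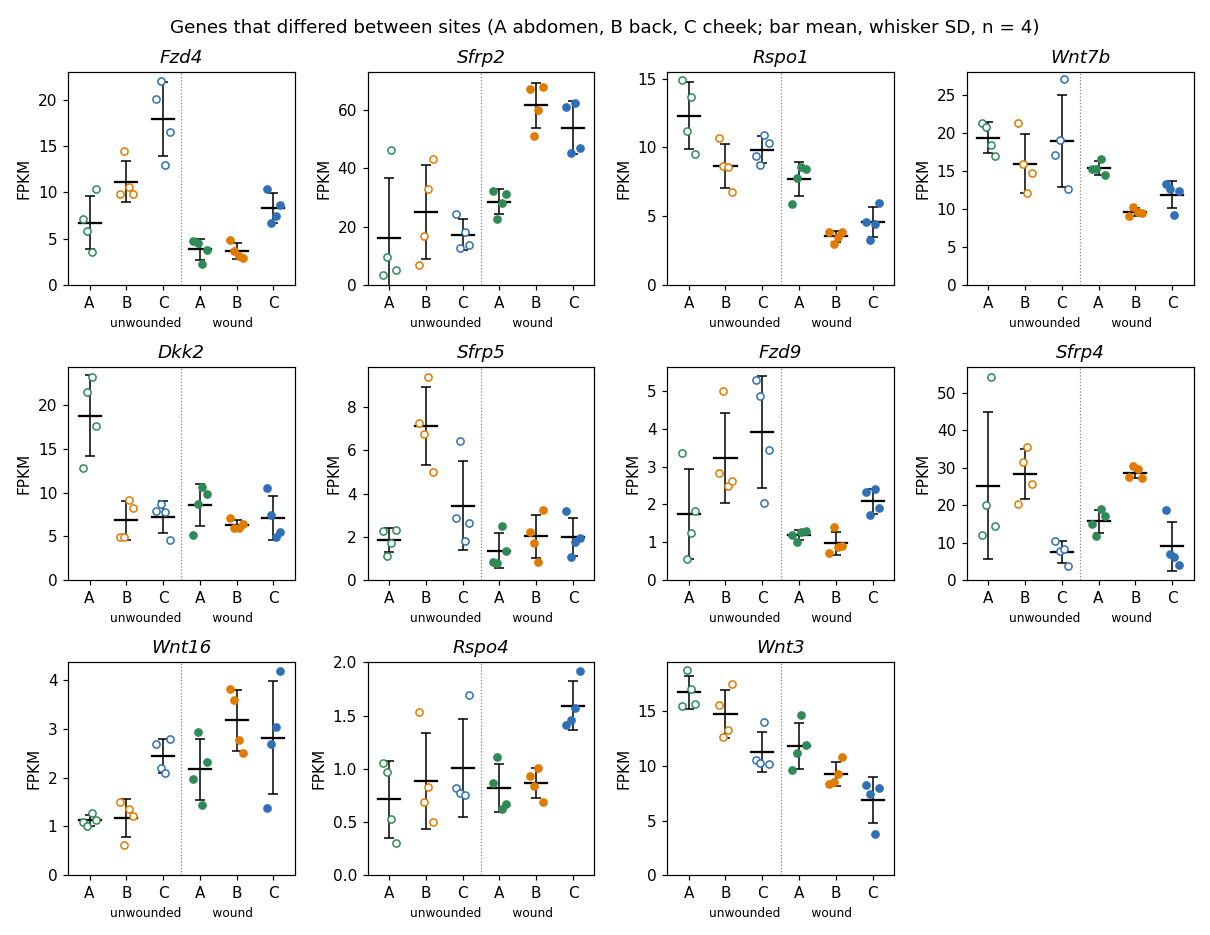
FPKM of 11 genes called between sites in unwounded skin or in wounds, with a point for each mouse (open for unwounded skin, filled for wounds), bars for the mean and whiskers for the SD of 4 mice at abdomen (A), back (B) and cheek (C). Dkk2 has its highest mean in unwounded abdomen (18.8 FPKM), Sfrp2 is lowest among wounds in abdomen (28.6 FPKM) and Sfrp4 is low in cheek in both states (7.51 and 9.03 FPKM).

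Other genes of the pathway were tested in the same way. Of 17 tested genes for the release of Wnts and their handling at the cell surface, 2, 3 and 4 rose and 6, 5 and 6 fell in abdomen, back and cheek, against 16.9%, 28% and 19.7% of all tested genes higher and 16%, 17.9% and 16.9% lower. The list's median log2 differences were -0.14, -0.22 and -0.25. Porcn, the enzyme that attaches the lipid to Wnts, rose at all 3 sites, by 1.14, 0.85 and 0.97 on the log2 scale (limma adjusted p = 3.80e-05, 1.29e-04 and 6.73e-05), from 6.24 to 14.3 FPKM in abdomen. Lgr4, a receptor for R-spondins, fell by 0.68, 0.49 and 0.76 (adjusted p = 0.00545, 0.0189 and 0.00218). Reck, a membrane protein that works with Adgra2 in Wnt7 signalling, fell by 0.92, 1.02 and 0.87 (adjusted p = 0.00165, 4.07e-04 and 0.00164), and the Wnt receptor kinase-like protein Ryk by 0.22, 0.22 and 0.19 (adjusted p = 0.0193, 0.0145 and 0.0384). Between sites, Cthrc1, named here after its values were seen, was higher in unwounded back (139.9 FPKM) than in abdomen (24.6, adjusted p = 2.20e-04) or cheek (30.7, adjusted p = 1.36e-04), and also in back wounds.

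Of 13 tested beta-catenin target and feedback genes, 5, 4 and 7 fell, against 16%, 17.9% and 16.9% of all tested genes, and 0, 1 and 0 rose, with median log2 differences of -0.41, -0.40 and -0.53. Apcdd1, an inhibitor at the cell surface, fell by 0.69, 0.85 and 0.74 (adjusted p = 0.00144, 1.45e-04 and 6.06e-04) and Tnfrsf19 by 0.68, 1.17 and 0.94 (adjusted p = 0.00377, 4.52e-05 and 3.20e-04). Nkd1, a feedback inhibitor, fell by 0.73, 0.77 and 0.85 (adjusted p = 0.00313, 0.00114 and 8.37e-04), and Rnf43, the ligase that R-spondins counter, by 0.41, 0.57 and 0.54 (adjusted p = 0.0407, 0.00564 and 0.00998). These 4 fell together with Axin2 at every site. Resting follicle markers fell too, as given above, and their part in these falls was not tested.

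Of 22 tested cytoplasmic and nuclear transducers, 2, 3 and 1 rose and 1, 4 and 4 fell, so that 3, 7 and 5 were called, against 32.9%, 45.9% and 36.6% of all tested genes, with medians between -0.11 and -0.025. Pygo2, a nuclear partner of beta-catenin, was the gene of this list called at all 3 sites, and rose by 0.36, 0.32 and 0.23 (adjusted p = 0.00634, 0.00762 and 0.0437). Of 12 tested planar polarity genes, 0, 2 and 1 rose and 1, 2 and 2 fell, with medians of 0.012, -0.0011 and -0.024, against the same shares of all tested genes. Celsr1, a cadherin that orients hairs, fell by 0.50, 0.55 and 0.56 (adjusted p = 0.00607, 0.0022 and 0.00268). None of these 4 lists held a gene called by limma in the F test of the difference between sites.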

How the data were processed

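Libraries of 100-base paired reads were sequenced for 24 samples (12 mice, a wound and an unwounded library each). Per the labels' processing notes, the authors used HISAT2, Bowtie2 2.2.5 and RSEM 1.2.12 with the mouse genome build mm10 (GRCm38), and deposited FPKM values per gene. The deposited FPKM table holds no counts, so depth is unknown and no counting interval is given. The deposited table of the authors' comparisons, with 18 columns (log2 fold change and adjusted p-value), was not used. No per-sample column was left unused (0), and 3 rows share a symbol with another.

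FPKM values were taken as log2(FPKM + 0.5), and genes with at least 0.5 FPKM in 4 libraries were tested with limma 3.58.1 (statmod 1.5.0, R 4.3.3) with Benjamini-Hochberg adjustment over all tested genes. Sites were compared within unwounded skin and within wounds (12 libraries each). Wound effects came from 1 fit to 24 libraries with mouse as a block, and the difference between sites from its moderated F test. The replicates are separate mice. Wound and unwounded libraries of a mouse deviated from their group means together, with mean correlations for abdomen, back and cheek of 0.322, 0.348 and 0.281 (the lowest for 1 mouse was -0.0299, in abdomen), against -0.108, -0.116 and -0.0958 between different mice.

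Genes called in any comparison were named with values, with Sfrp4, Wnt2, Wnt5a and Axin2 in any case. Values in every library were given for the 16 genes with the smallest p between sites, in the F test or in a wound effect shared by all 3 sites. Other pathway genes were named when called at all 3 sites in 1 direction. The genes and lists were chosen with earlier results of these data known. Alternatives covered the pseudocount, the filter, the scaling, the block, the libraries in the fit and each mouse left out, and the scripts were tested on simulated data.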

Additional observations from a re-analysis of the deposited data

Results flagged for a closer look

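In 9 of the 108 groups of 4 libraries looked at, 1 library stood far from the other 3 by Dixon's test, which chance alone does in about 1 in 20 groups. In back wounds of mouse 3, Axin2 was at 4.84 FPKM against 5.94 to 5.97 in the others, Wnt2 at 2.71 against 4.62 to 4.7, and Wnt5a at 7.71 against 5.97 to 6.2. In unwounded back skin of mouse 2, Fzd4 was at 14.49 FPKM against 9.77 to 10.56 and Fzd9 at 5.01 against 2.48 to 2.83. In cheek, the unwounded library of mouse 4, with high growing follicle markers, held Rspo4 at 1.69 FPKM against 0.75 to 0.82, that of mouse 3 held Wnt3 at 14.03 against 10.13 to 10.57, and the wound of mouse 1 held Wnt2 at 2.74 against 0.61 to 0.77. In unwounded abdomen, mouse 3 held Sfrp2 at 46.46 FPKM against 3.54 to 9.74.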

How the results depend on the processing

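Counts of called genes between sites changed with several choices. No share of all tested genes called is given for the alternative fits, here or above. Whether these genes moved apart from the rest therefore cannot be read from the counts. Between unwounded abdomen and back, 2 became 4 with all 24 libraries in 1 fit, and ranged from 0 (without abdomen mouse 2 or 3) to 3 with a mouse left out. Between unwounded abdomen and cheek, 4 became 6 with all 24 libraries in 1 fit, and ranged from 0 (without abdomen mouse 2, cheek mouse 1 or cheek mouse 2) to 4 with a mouse left out. Between unwounded back and cheek, 1 became 0 with a pseudocount of 0.1, with no filter, with median-ratio scaling and with quantile normalization, 5 with all 24 libraries, and 0 to 1 with a mouse left out. In wounds, abdomen against back (3) gave 1 with all 24 libraries and 1 to 4 with a mouse left out, abdomen against cheek (9) gave 3 and 3 to 8 (3 without abdomen mouse 3), and back against cheek (4) gave 2 with quantile normalization and 0 to 5 (0 without back mouse 3, back mouse 4 or cheek mouse 4). Without abdomen mice 2 and 3, an alternative chosen after seeing the data that leaves 2 abdomen mice, all 4 comparisons of abdomen with another site gave 0.

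The wound counts of 11, 16 and 19 became 1, 4 and 3 at a threshold of 0.001, and ranged from 7 to 13, 12 to 19 and 12 to 19 with a mouse left out. The cheek count was 11 in a fit to the 8 cheek libraries alone. The count of the F test was 0 in every alternative run.

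For the replicate block, the mouse is the block in the wound effects, and the fit with no replicate block called 12, 16 and 15 genes in abdomen, back and cheek. Across sites the mice share only a number. With that number as a replicate block, the 3 unwounded comparisons called 1, 3 and 0 genes and the 3 wound comparisons 2, 4 and 1.

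Among the alternatives for single named genes, 1900 kept direction and side of the threshold, 261 lost a call, 17 gained one and 20 turned direction, and none of those 20 concerned a called difference. For Axin2, abdomen minus back in unwounded skin was -0.081 with median-ratio scaling and -0.031 with quantile normalization. With a mouse left out its unwounded differences ran from -0.017 to 0.098, -4.54e-05 to 0.10 and -0.047 to 0.079 (abdomen minus back, abdomen minus cheek, back minus cheek), and abdomen minus cheek in wounds from -0.052 to 0.19. For Wnt2, unwounded abdomen minus cheek was -0.015 without abdomen mice 2 and 3, and with a mouse left out abdomen minus cheek in wounds ran from -0.088 to 0.51 and the back wound effect from -0.41 to 0.31. For Sfrp4, the abdomen wound effect was 0.28 without abdomen mice 2 and 3, the back one -0.021 with median-ratio scaling, -0.062 with quantile normalization and -0.079 to 0.15 with a mouse left out, and the cheek one -0.12 to 0.27. The cheek wound effect of Wnt5a ran from -0.29 to 0.24. The causes were not tested.

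FPKM without counts gives no depth, so how far low genes such as Rspo2, Rspo4 and Wnt10b are limited by counting is unknown, and 4 mice a site limit all comparisons.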
